A study of Homo sapiens with 10 samples.

Results

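The 39 genes described here encode the glutathione, thioredoxin and peroxiredoxin systems, ferritin, and the transcription factor NRF2 with several of its classical targets. They were taken by symbol from a list of oxidative defence genes, and all 39 were found among the 58174 genes of the expression table, each on a single row. RNA sequencing covered 10 libraries of the human neuroblastoma line SH-SY5Y, an established line of noradrenergic character used as a neuron-like model. In the knockdown experiment, cells were transfected with a pool of small interfering RNAs against TDP-43 (siTDP-43, 3 libraries) or with a control pool (siControl, 3 libraries), each at 50 nM in 2 doses, at 0 and 24 hours, for 96 hours in all. In the genome-editing experiment, cells homozygous for the mutant TDP-43 N352S (2 libraries) were set against cells with wild-type TDP-43 (2 libraries). TARDBP encodes TDP-43, an RNA-binding protein that is lost from the nucleus in most cases of amyotrophic lateral sclerosis, and N352S is a substitution in its C-terminal domain. The labels speak of biological replicates without naming cultures or clones, so p-values reflect the spread among libraries, which may be technical, and an effect of the edit and a difference between edited and unedited lines cannot be told apart.

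NRF2, encoded by NFE2L2, is held at a low level by KEAP1, a substrate adaptor that passes it to a ubiquitin ligase. When electrophiles or oxidants modify KEAP1, NRF2 accumulates and activates genes that carry antioxidant response elements, among them NQO1, HMOX1, GCLC, GCLM, SLC7A11, TXNRD1 and SRXN1. Their products import cystine, make glutathione and keep it and thioredoxin reduced, while glutathione peroxidases, glutathione transferases and peroxiredoxins use these thiols to remove peroxides and to conjugate reactive compounds. Oxidative stress and disturbed iron storage are long-standing themes in motor neuron disease.

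The core of the antioxidant response element, TGACNNNGC, was searched on both strands of a 300-base window, 250 bases before to 50 after each RefSeq gene start (GRCh38.p14). A promoter was found in the RefSeq table for 31 of the 39 genes, and 6 of these 31 windows (19.4%) held the core, against 4687 of 35116 windows of all genes (13.3%). The stretches with a match are shown because they mark which of the genes described below carry these letters close to their start. The match is in capitals, as its reverse complement where it lies on the opposite strand, and each stretch reads 5′ to 3′ on the strand of its gene. They lie at chr6:83431165-83431203 and chr6:83431017-83431055 (minus strand) for ME1, chr1:93909441-93909479 (minus) for GCLM, chr6:52995270-52995308 (minus) for GSTA4, chr10:104254651-104254689 and chr10:104254716-104254754 (plus) for GSTO1, chr11:67583731-67583769 (plus) for GSTP1, and chr12:104215665-104215703 and chr12:104215756-104215794 (plus) for TXNRD1.
ME1, first match: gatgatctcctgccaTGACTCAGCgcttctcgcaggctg
ME1, second match: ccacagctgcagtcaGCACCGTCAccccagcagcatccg
GCLM: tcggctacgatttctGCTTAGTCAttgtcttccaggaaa
GSTA4: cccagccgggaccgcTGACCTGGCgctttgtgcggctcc
GSTO1, first match: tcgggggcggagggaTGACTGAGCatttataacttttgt
GSTO1, second match: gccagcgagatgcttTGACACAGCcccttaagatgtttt
GSTP1: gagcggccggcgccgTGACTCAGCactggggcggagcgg
TXNRD1, first match: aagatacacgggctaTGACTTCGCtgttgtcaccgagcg
TXNRD1, second match: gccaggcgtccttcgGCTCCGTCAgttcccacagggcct

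The core was not found in these windows of the other matched genes, NQO1, GCLC, SRXN1, GSTM4, GPX1, GPX8 and MGST1 among them. A single window of 300 bases was searched per gene, so an element farther from the start would not be seen. HMOX1 and SLC7A11 had no entry. The window of MGST1, the gene with the largest difference among the 39, is printed whole for reference (chr12:16347395-16347694, plus strand).
MGST1: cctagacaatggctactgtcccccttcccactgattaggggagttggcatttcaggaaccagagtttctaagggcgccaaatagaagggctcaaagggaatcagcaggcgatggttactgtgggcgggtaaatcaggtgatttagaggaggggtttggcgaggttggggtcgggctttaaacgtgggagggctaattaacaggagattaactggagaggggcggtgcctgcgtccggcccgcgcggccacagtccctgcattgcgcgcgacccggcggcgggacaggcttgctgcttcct

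Expression was given as TPM, a transcript abundance corrected for gene length and scaled to the same total in each library. Sequencing depth cannot be read from TPM and is unknown, which leaves the values without a counting interval. TARDBP averaged 64.35 TPM in siTDP-43 and 255.8 TPM in siControl libraries, and 122.6 TPM in N352S and 200.5 TPM in wild-type libraries. Libraries of a group correlated at 0.977 to 0.990 on the log2(TPM + 1) scale. Mitochondrially encoded genes took 15.5 to 16.2% of TPM in siTDP-43 and 11.998 to 14.3% in siControl libraries, and 13.6 to 14.1% in N352S and 14.0 to 14.8% in wild-type libraries. The noradrenergic markers were high in all 4 groups (summed 4053 to 5474 TPM), and the 5 leukocyte markers summed to at most 4.72 TPM, with PTPRC, CD3E and MS4A1 at or near 0 and CD14 and CD68 at low levels (CD14 averaged 1.43 to 2.06 TPM, CD68 0.14 to 1.85 TPM over the groups). In siTDP-43 the noradrenergic sum was 5291 to 5474 TPM, against 4606 to 4814 TPM in siControl (5 of 9 markers higher, 2 lower). The 6 Schwann markers summed to 32.8 to 35.2 TPM in siTDP-43, against 58.4 to 58.9 TPM in siControl, and PMP22 fell by 0.82 (adjusted p = 3e-05). In N352S the 10 mesenchymal markers summed to 920.3 to 965.1 TPM, against 536.0 to 557.0 TPM in wild type, and VIM made up most of that sum; 3 of the 8 tested were higher and 2 were lower. Of the epithelial markers, EPCAM averaged 4.48 TPM in N352S and 1.84 TPM in wild type, while KRT8 and CDH1 stayed near 0. The part of these differences in the results below was not tested.

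All 39 genes reached the mean of 1 TPM over the 10 libraries that was required for a test, which 17118 genes did. MGST1 reached it only through the N352S libraries and SLC7A11 only through the N352S and wild-type libraries. On mean TPM over all libraries, 12 of the genes lay at 100 or above, 23 between 10 and 100, and 4 below 10. The iron-storage subunit FTH1 was the most abundant of them in all 4 groups, at 1472 ± 38.4 TPM in siTDP-43, 1386 ± 8.73 in siControl, 1698 ± 186 in N352S and 1853 ± 21.3 in wild type (SD, n = 3, 3, 2 and 2). The 4 least abundant were HMOX1, SLC7A11, GPX8 and MGST1. Together the 39 genes took 0.557 to 0.566% of all TPM in siTDP-43 and 0.579 to 0.587% in siControl libraries, and 0.639 to 0.668% in N352S and 0.667 to 0.681% in wild-type libraries. The summed share was thus below that of siControl in every siTDP-43 library, while N352S library 82 lay above wild-type library 79.

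**Figure D1:**
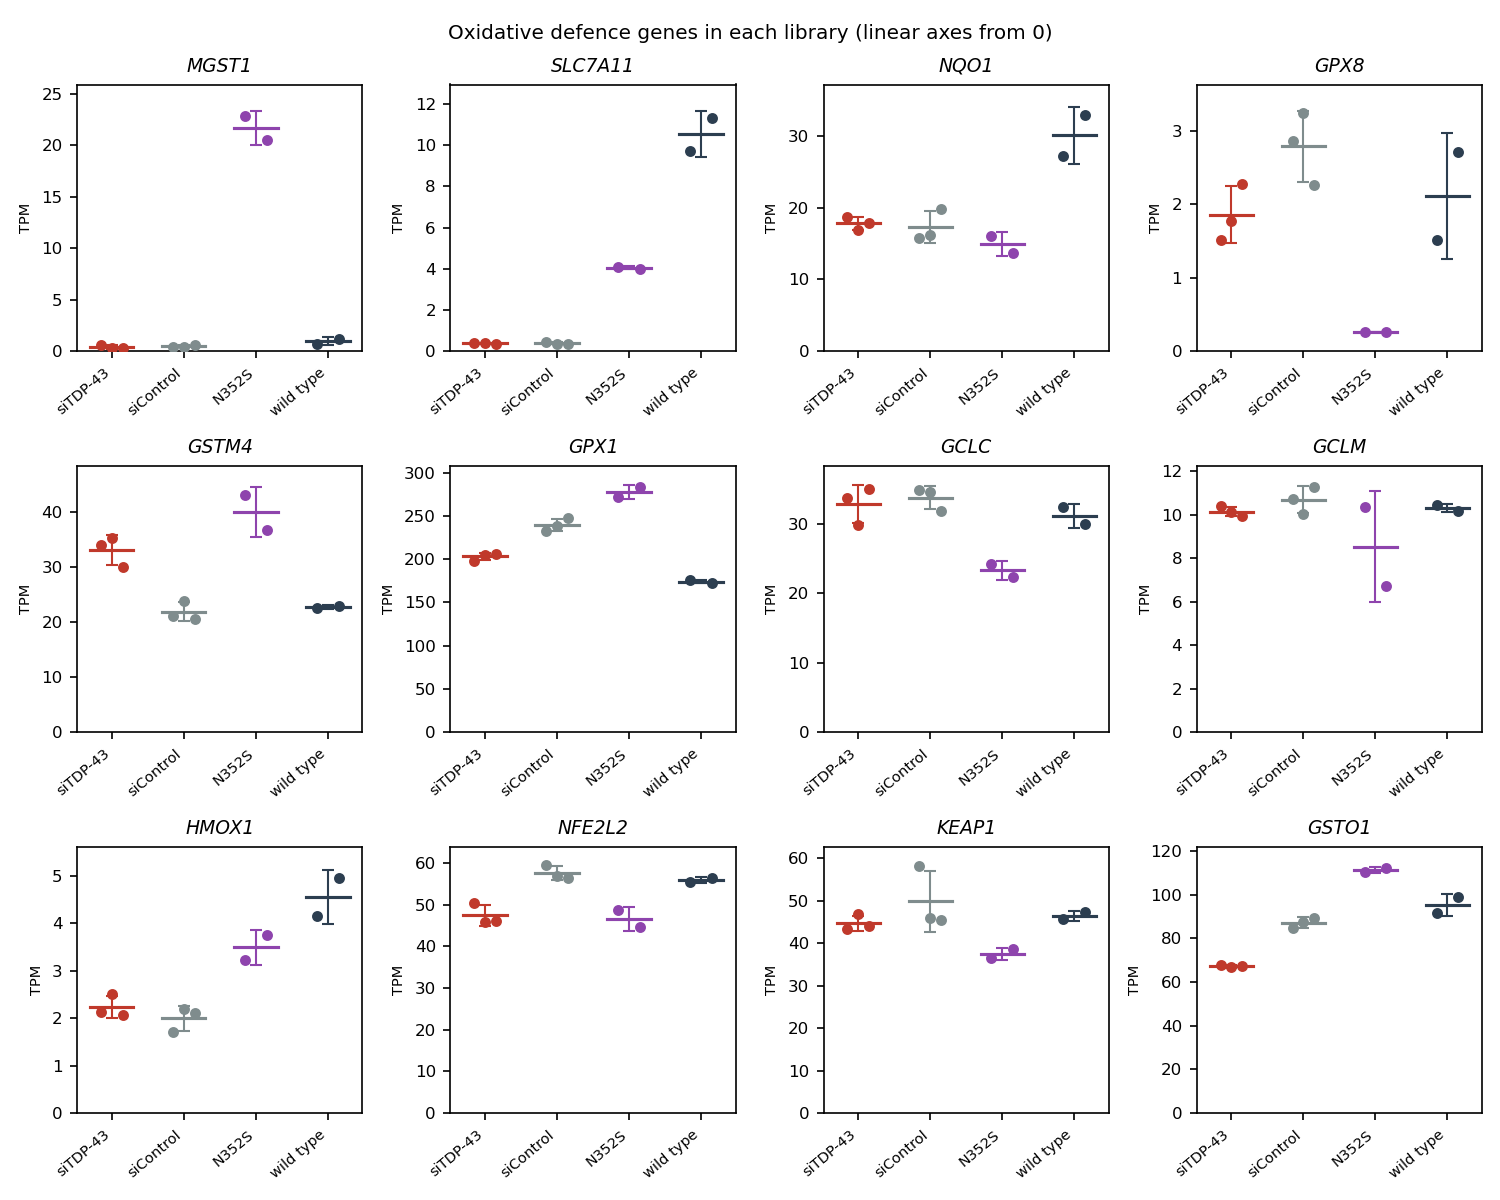
TPM of 12 of the genes in each library, on linear axes from 0, by group (siTDP-43 and siControl, 3 libraries each; N352S and wild type, 2 each). Points are libraries, lines are group means and bars are SDs. MGST1 lies at 22.82 and 20.54 TPM in the N352S libraries and at 1.21 TPM or less in all other libraries, and GPX8 lies at 0.26 TPM in both N352S libraries.

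After knockdown of TDP-43 the differences among the oxidative defence genes were small, and GSTM4, at 0.57 on the log2 scale, had the largest that was called. Of the 39, 2 were higher in siTDP-43 (5.13%, where 6.19% of all tested genes were higher) and 8 were lower (20.5%, where 19.8% of all tested genes were lower), so the shares were near those of the whole table. The genes that rose were GSTM4 and GSTP1, and those that fell were NFE2L2, ME1, GPX1, GSTK1, GSTO1, PRDX2, PRDX6 and FTL. Differences were tested with limma on log2(TPM + 1) and called at a Benjamini-Hochberg adjusted p under 0.05 over all tested genes; log2 differences are given with the SE of the fit and understate the change of low genes. The median difference was −0.07 for the 39 genes and −0.08 for all tested genes. Where scaling removed that common shift, the split of the calls changed: 4 of the genes were higher and 5 lower with median-of-ratios scaling, and 5 were higher and 5 lower with quantile normalization. Over all tested genes, 76.2% of the calls were lower in siTDP-43, against 51.7% and 51.1% under these scalings. Those calls were 1059 higher and 3389 lower in the main fit, 1939 and 2077 with median-of-ratios scaling, and 1932 and 2015 with quantile normalization.

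In N352S cells the spread between the genes was wider, led by MGST1. Here 6 of the 39 were higher (15.4%, where 8.28% of all tested genes were higher) and 8 were lower (20.5%, where 11.9% of all tested genes were lower). The 6 include MGST1, which earlier results had singled out for this difference, so the share of higher genes is a description. MGST1, GSTM4, GPX1, GSTM3, PRDX4 and GSTO1 rose, and GPX8, SLC7A11, NQO1, GCLC, NFE2L2, TXNRD1, FTL and PRDX1 fell. The median difference was −0.05 for the 39 genes and −0.03 for all tested genes. The number of lower genes depended on single libraries: 5 were called without N352S library 82, 5 without wild-type library 79 and 4 without wild-type library 80. These tests take the pairs of genotype libraries to vary as the siRNA libraries do, since all 4 groups share one estimate of the spread.

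**Figure D2:**
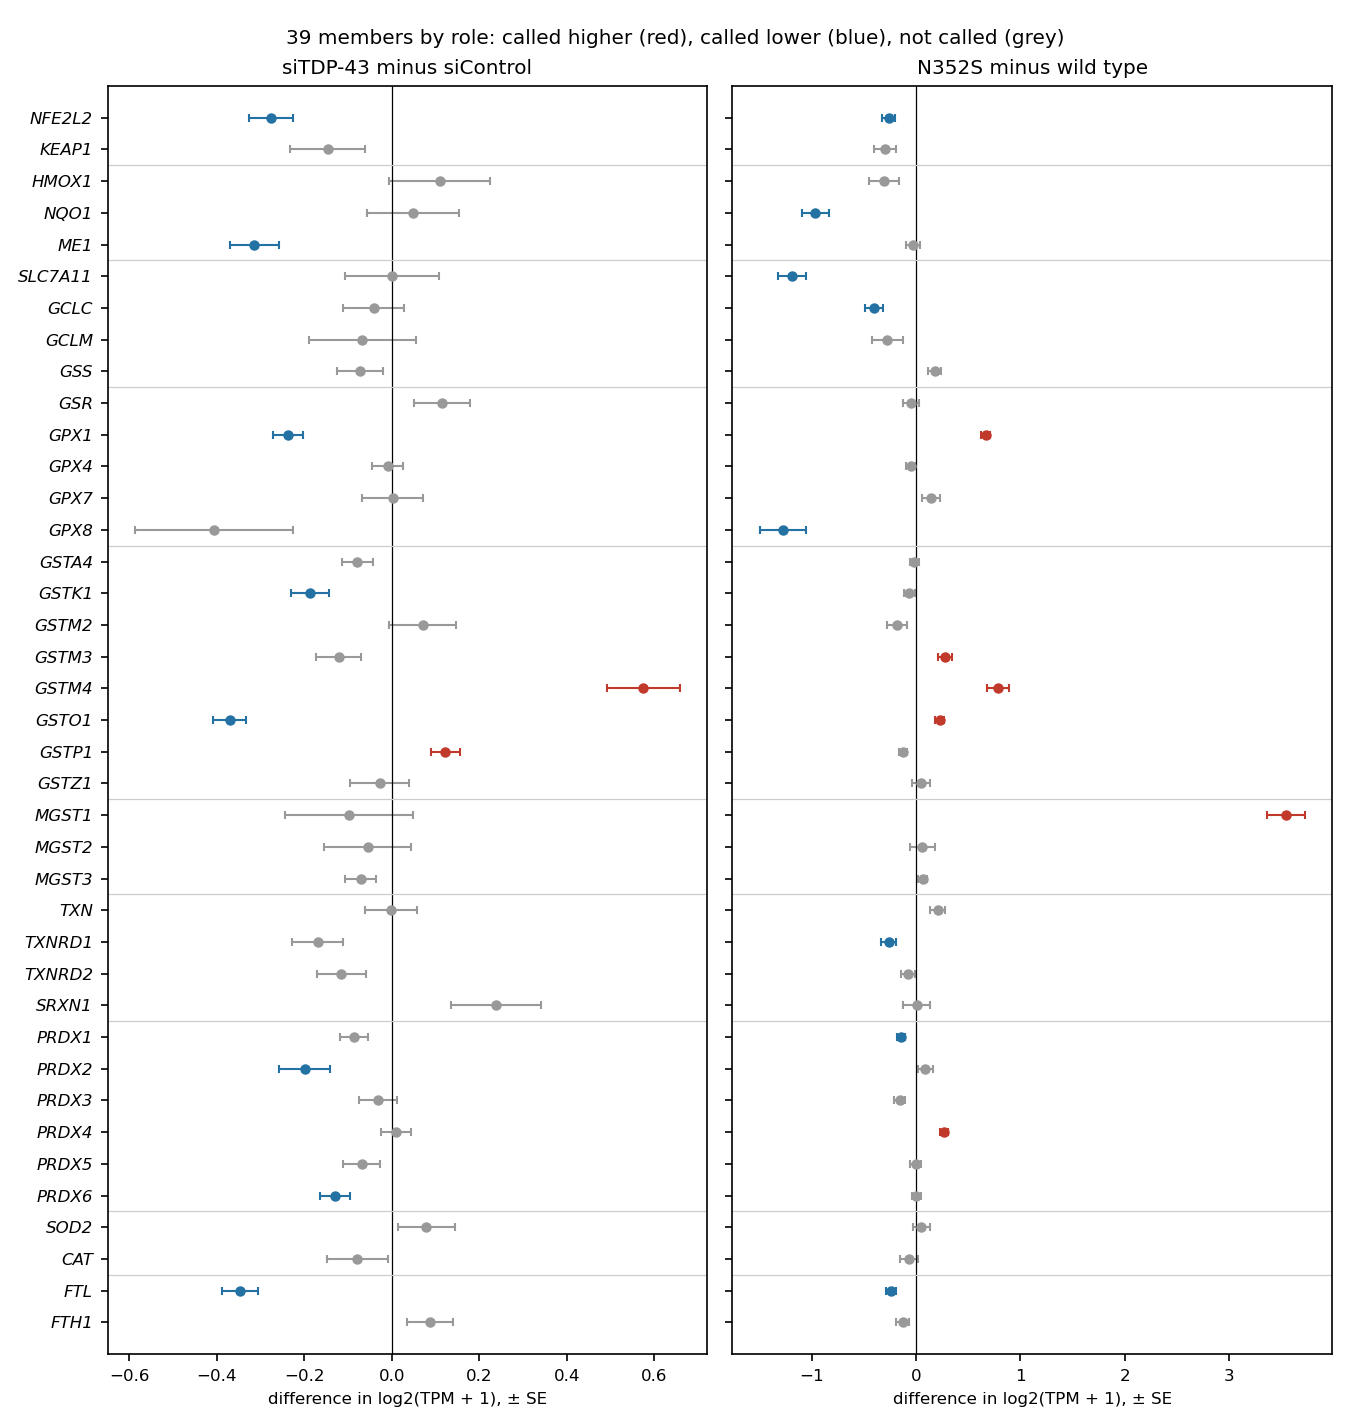
Log2(TPM + 1) difference of each of the 39 genes with its SE, siTDP-43 minus siControl in the left panel and N352S minus wild type in the right panel; colour marks genes called at adjusted p under 0.05. The horizontal scales of the panels differ: knockdown differences run from −0.41 (GPX8, not called) to 0.57 (GSTM4), and N352S differences from −1.28 (GPX8) to 3.55 (MGST1).

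Of the regulators, NFE2L2, which encodes NRF2, had 50.34, 45.93 and 46.08 TPM in the siTDP-43 libraries, against 59.57, 56.82 and 56.39 TPM in the siControl libraries. It had 48.65 and 44.58 TPM in the N352S libraries, against 55.45 and 56.53 TPM in the wild-type libraries. The groups did not overlap in either experiment. NFE2L2 fell by 0.28 ± 0.05 in siTDP-43 (adjusted p = 0.0045) and by 0.26 ± 0.06 in N352S (adjusted p = 0.018) on the log2(TPM + 1) scale. The knockdown call held under all 20 alternatives, but the N352S call was lost without N352S library 82 (adjusted p = 0.10), wild-type library 79 (0.072) or wild-type library 80 (0.087), and with only the genotype libraries fitted (0.067).

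KEAP1, the repressor of NRF2, had 43.33, 46.73 and 43.94 TPM in siTDP-43 libraries, against 58.08, 45.95 and 45.48 TPM in siControl libraries, and siControl library 1 alone stood high. It had 36.46 and 38.53 TPM in N352S libraries, against 45.62 and 47.27 TPM in wild-type libraries, without overlap. Neither difference was called (−0.15 ± 0.09, adjusted p = 0.25, in siTDP-43; −0.30 ± 0.11, adjusted p = 0.077, in N352S). Without siControl library 1, the N352S difference of −0.30 was called (adjusted p = 0.0068).

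The inducible enzymes differed among themselves. NQO1, a quinone reductase and one of the most used readouts of NRF2, had 18.71, 16.92 and 17.85 TPM in siTDP-43, against 15.72, 16.27 and 19.82 TPM in siControl libraries. It had 16.12 and 13.72 TPM in N352S, against 27.3 and 32.92 TPM in wild-type libraries. The siRNA groups overlapped, while both N352S values lay well below the wild-type values. NQO1 fell by 0.96 ± 0.13 in N352S (adjusted p = 0.001) and differed by 0.05 ± 0.10 in siTDP-43 (adjusted p = 0.77).

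HMOX1, heme oxygenase 1, had 2.13, 2.5 and 2.06 TPM in siTDP-43, against 1.7, 2.19 and 2.1 TPM in siControl libraries. It had 3.23 and 3.75 TPM in N352S, against 4.15 and 4.96 TPM in wild-type libraries. The siRNA groups overlapped, and the genotype groups did not, but neither difference was called (0.11 ± 0.12, adjusted p = 0.53, in siTDP-43; −0.31 ± 0.14, adjusted p = 0.17, in N352S). ME1, the cytosolic malic enzyme that supplies NADPH, averaged 9.13 ± 0.304 TPM in siTDP-43 and 11.6 ± 0.539 TPM in siControl libraries (SD, n = 3 each) and fell by 0.31 ± 0.06 (adjusted p = 0.0037). In the genotype experiment ME1 averaged 19.2 TPM in N352S and 19.7 TPM in wild-type libraries, with overlap (adjusted p = 0.78).

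Of the 4 listed genes of cystine import and glutathione synthesis, 0 were called by limma after the knockdown and 0 had an unadjusted p under 0.05. In N352S 2 of the 4 were lower (19.8% of all tested genes were lower in siTDP-43 and 11.9% in N352S). With 4 genes these counts are a description. A wider list, described below, held 9 tested genes of glutathione synthesis, import and breakdown. Of these, 1 was higher in siTDP-43 (SLC3A2) and 3 were lower (CBS, CHAC1 and CHAC2), where 6.19% and 19.8% of all tested genes were. SLC7A11, the light chain of the cystine/glutamate antiporter, had 4.1 and 4 TPM in N352S, against 9.74 and 11.33 TPM in wild-type libraries. It was almost silent in the siRNA experiment, with 0.41, 0.38 and 0.34 TPM in siTDP-43, against 0.44, 0.33 and 0.36 TPM in siControl libraries. Both N352S libraries therefore lay below both wild-type libraries, and the siRNA groups overlapped. SLC7A11 fell by 1.19 ± 0.13 in N352S (adjusted p = 0.00036), and its level in the knockdown cells was under the filter that it passed through the genotype libraries.

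GCLC, the catalytic subunit of the enzyme that limits the rate of glutathione synthesis, had 24.24 and 22.31 TPM in N352S, against 32.4 and 29.96 TPM in wild-type libraries. It had 33.72, 29.8 and 34.99 TPM in siTDP-43, against 34.87, 34.54 and 31.89 TPM in siControl libraries. The N352S values were the lowest of the 10, and the siRNA groups overlapped. GCLC fell by 0.41 ± 0.09 in N352S (adjusted p = 0.01) and differed by −0.04 ± 0.07 in siTDP-43 (adjusted p = 0.71). Without N352S library 82 or wild-type library 79 the call was lost (adjusted p = 0.066 and 0.078).

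GCLM, the modifier subunit of the same enzyme, had 10.33 and 6.72 TPM in N352S, against 10.44 and 10.18 TPM in wild-type libraries. It had 10.38, 10.1 and 9.95 TPM in siTDP-43, against 10.74, 10.04 and 11.27 TPM in siControl libraries. N352S library 82 alone was low, and the groups overlapped in both experiments. GCLM was not called in N352S (−0.27 ± 0.15, adjusted p = 0.24), and without N352S library 81 it was called lower (−0.55, adjusted p = 0.0068). GSS, which adds the last amino acid of glutathione, averaged 47.9 TPM in N352S and 42.2 TPM in wild-type libraries (0.18 ± 0.06, adjusted p = 0.084).

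Among the glutathione peroxidases, GPX1, the abundant cytosolic enzyme, differed in opposite directions. GPX1 had 198.2, 204.8 and 206.7 TPM in siTDP-43, against 232.6, 238.8 and 247.4 TPM in siControl libraries. It had 272.2 and 283.2 TPM in N352S, against 175.6 and 172.9 TPM in wild-type libraries. Neither pair of groups overlapped. GPX1 fell by 0.24 ± 0.03 in siTDP-43 (adjusted p = 0.0014) and rose by 0.67 ± 0.04 in N352S (adjusted p = 1.5e-05), and both calls held under every alternative. Its share of the summed TPM of GPX1, GPX4, GPX7 and GPX8 was 46.0% in siTDP-43 and 49.9% in siControl libraries. It was 49.2% in N352S and 37.1% in wild-type libraries. GPX3, described below with the wider list, is not in this sum. GENCODE release 29 lists GPX1 as a polymorphic pseudogene, a type that marks genes whose coding state varies between people.

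GPX8, a peroxidase of the endoplasmic reticulum membrane, had 0.26 TPM in both N352S libraries, against 1.51 and 2.72 TPM in the wild-type libraries. It had 1.52, 1.78 and 2.28 TPM in siTDP-43, against 2.86, 3.24 and 2.27 TPM in siControl libraries. The N352S values were the lowest of all libraries, and the siRNA groups just overlapped. GPX8 fell by 1.28 ± 0.22 in N352S (adjusted p = 0.0041), a change that depends on the pseudocount at this level (−2.57 with 0.1 and −0.43 with 5), and the knockdown difference was not called (−0.41 ± 0.18, adjusted p = 0.13). GPX4, which reduces lipid peroxides, averaged 207.2 ± 1.56 TPM in siTDP-43 and 208.6 ± 8.90 TPM in siControl libraries, and 258.7 ± 5.43 TPM in N352S and 268.3 ± 3.61 TPM in wild-type libraries. GPX4, GPX7 and the glutathione reductase GSR were not called in either experiment.

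Among the cytosolic glutathione transferases, which conjugate glutathione to electrophiles, GSTM4 rose in both experiments. It had 34.09, 35.27 and 30.01 TPM in siTDP-43, against 21.21, 23.91 and 20.58 TPM in siControl libraries. It had 43.25 and 36.85 TPM in N352S, against 22.55 and 22.98 TPM in wild-type libraries. Every siTDP-43 and N352S library lay above every control library. GSTM4 rose by 0.57 ± 0.08 in siTDP-43 (adjusted p = 0.0014) and by 0.78 ± 0.10 in N352S (adjusted p = 0.00095). It lies next to and partly over GSTM2, a gene of the same mu class, on the same strand of chromosome 1, so the split of reads between them is uncertain. The summed TPM of GSTM2 and GSTM4 were 57.3 ± 2.12 in siTDP-43 and 44.9 ± 2.34 in siControl libraries (SD, n = 3 each), and 66.2 ± 4.85 in N352S and 52.6 ± 1.99 in wild-type libraries (SD, n = 2 each). GSTM2 alone was not called in either experiment.

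GSTO1, an omega-class transferase that also reduces dehydroascorbate, was lower after the knockdown and higher in the mutant. It averaged 67.3 ± 0.668 TPM in siTDP-43 and 87.3 ± 2.37 TPM in siControl libraries, a fall of 0.37 ± 0.04 (adjusted p = 0.00024). It averaged 111.6 ± 1.36 TPM in N352S and 95.35 ± 4.94 TPM in wild-type libraries, a rise of 0.23 ± 0.05 (adjusted p = 0.0094). The groups did not overlap in either experiment, and the N352S call was lost without N352S library 82 (adjusted p = 0.051) or wild-type library 79 (0.074). GSTP1, the most abundant transferase with 60.6 to 66.1% of the family's TPM in the group means, averaged 655.0 ± 6.76 TPM in siTDP-43 and 601.8 ± 19.1 TPM in siControl libraries. It rose by 0.12 ± 0.03 in siTDP-43 (adjusted p = 0.026), but was not called when any single siTDP-43 library was left out, or without siControl library 1 or 2 (adjusted p between 0.058 and 0.084).

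GSTM3, a mu-class transferase of brain and testis, averaged 104.7 ± 3.94 TPM in N352S and 86.1 ± 0.361 TPM in wild-type libraries and rose by 0.28 ± 0.06 (adjusted p = 0.015). Without N352S library 81 or either wild-type library that call was lost (adjusted p between 0.063 and 0.081). GSTK1, the kappa-class transferase of mitochondria and peroxisomes, averaged 70.3 ± 3.70 TPM in siTDP-43 and 80.1 ± 2.46 TPM in siControl libraries and fell by 0.19 ± 0.04 (adjusted p = 0.014). Its call was lost under both scalings (adjusted p = 0.11 and 0.13) and without siTDP-43 library 1 or 2 (0.052 and 0.053). GSTA4 and GSTZ1 were not called in either experiment.

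Of the microsomal glutathione transferases, membrane enzymes of the endoplasmic reticulum and mitochondria, MGST1 differed most. MGST1 had 22.82 and 20.54 TPM in the N352S libraries, against 0.7 and 1.21 TPM in the wild-type libraries. It had 0.58, 0.28 and 0.27 TPM in siTDP-43, against 0.43, 0.41 and 0.56 TPM in siControl libraries. The N352S libraries stood apart from all others, 22.7-fold above wild type on mean TPM, and the siRNA groups overlapped. MGST1 rose by 3.55 ± 0.18 in N352S (adjusted p = 3.8e-06) and was not called in siTDP-43 (−0.10 ± 0.15, adjusted p = 0.67). The rise was known from earlier results of these data, which singled the gene out, so its p-value is no independent support. It also passed the filter only through N352S, and the fitted rise depends on the pseudocount (4.41 with 0.1 and 2.16 with 5).

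MGST1 took 9.31 ± 0.718% of the microsomal transferase TPM in N352S and 0.466 ± 0.148% in wild-type libraries (SD, n = 2 each). MGST3 supplied most of the family, at 194.1 ± 0.170 TPM in N352S and 185.4 ± 10.97 TPM in wild-type libraries, and neither MGST2 nor MGST3 was called in either experiment. MGST1 (chr12:16347142-16609259, plus strand, in GENCODE 29 on GRCh38) runs opposite to LMO3, a transcriptional cofactor gene on the minus strand, over 60887 bp of annotated span, with 0 bp of exon in common. LMO3, looked up after the MGST1 values were seen, averaged 14.0 TPM in N352S and 3.77 TPM in wild-type libraries (1.66 ± 0.11, adjusted p = 2.1e-05). No source states that counting used strand, and reads of such a pair may not be fully separated. Of the 8 other tested genes within 1000000 bp, 1 was higher in N352S (LMO3) and 2 were lower (RERG and PTPRO), where 8.28% and 11.9% of all tested genes were.

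In the thioredoxin system 0 of 4 genes were called by limma after the knockdown (TXNRD1 and SRXN1 had an unadjusted p under 0.05) and 1 of 4 was lower in N352S, against the same shares of all tested genes, 19.8% and 11.9% lower and 6.19% and 8.28% higher. TXNRD1, the cytosolic thioredoxin reductase, averaged 99.4 ± 10.3 TPM in N352S and 118.9 ± 2.96 TPM in wild-type libraries (SD, n = 2 each). It averaged 74.6 ± 2.58 TPM in siTDP-43 and 84.0 ± 3.67 TPM in siControl libraries (SD, n = 3 each). TXNRD1 was lower without overlap in both experiments, and it was called in N352S (−0.26 ± 0.07, adjusted p = 0.033) but not in siTDP-43 (−0.17 ± 0.06, adjusted p = 0.063). The N352S call was lost without N352S library 82 or either wild-type library (adjusted p = 0.17, 0.16 and 0.086). SRXN1, which restores overoxidised peroxiredoxins, averaged 32.1 ± 2.28 TPM in siTDP-43 and 27.0 ± 1.41 TPM in siControl libraries, without overlap (0.24 ± 0.10, adjusted p = 0.12), and was called higher under both scalings (adjusted p = 0.047 and 0.045). TXN and TXNRD2 were not called in either experiment.

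The peroxiredoxins, abundant thiol peroxidases, moved by less than 0.3 on the log2 scale. PRDX4, the secretory-pathway form, averaged 94.1 ± 0.544 TPM in N352S and 78.0 ± 0.764 TPM in wild-type libraries and rose by 0.27 ± 0.04 (adjusted p = 0.0025). PRDX1, the main cytosolic form, averaged 410.4 ± 1.63 TPM in N352S and 454.6 ± 19.5 TPM in wild-type libraries and fell by 0.15 ± 0.04 (adjusted p = 0.031). That call was lost under 8 of 19 alternatives, among them removal of either N352S library (adjusted p = 0.092 and 0.11) or of wild-type library 80 (0.18). In the knockdown, PRDX2 fell by 0.20 ± 0.06 (adjusted p = 0.035) and PRDX6 by 0.13 ± 0.03 (adjusted p = 0.024). These calls were lost under 12 and 8 of 20 alternatives, including median-of-ratios scaling (adjusted p = 0.26 for PRDX2 and 0.36 for PRDX6). PRDX3 and PRDX5, and the superoxide dismutase SOD2 and catalase CAT, were not called in either experiment.

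Of the ferritin subunits, FTL, the light chain, fell in both experiments. It averaged 511.6 ± 5.10 TPM in siTDP-43 and 651.2 ± 36.0 TPM in siControl libraries (SD, n = 3 each), a fall of 0.35 ± 0.04 (adjusted p = 0.00053). It averaged 541.8 ± 15.9 TPM in N352S and 640.3 ± 7.60 TPM in wild-type libraries (SD, n = 2 each), a fall of 0.24 ± 0.05 (adjusted p = 0.01) that was not called without N352S library 81 (adjusted p = 0.063) or wild-type library 80 (0.059). FTH1, the heavy chain with ferroxidase activity, was not called (0.09 ± 0.05, adjusted p = 0.26, in siTDP-43; −0.13 ± 0.06, adjusted p = 0.20, in N352S). The heavy chain made up 74.2 ± 0.502% of ferritin TPM in siTDP-43 and 68.0 ± 1.28% in siControl libraries, without overlap. Its share was 75.7 ± 1.48% in N352S and 74.3 ± 0.446% in wild-type libraries.

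The effects of knockdown and mutation on the same genes were compared by the difference of the log2 differences, N352S minus wild type less siTDP-43 minus siControl, which share no library. The effects differed for 10 of the 39 genes (25.6%, where 22.0% of all tested genes differed). MGST1, GPX1, GSTO1, GSTM3, ME1 and PRDX4 had the higher effect in N352S, and SLC7A11, NQO1, GCLC and GSTP1 had the lower. The differences ranged from −1.19 for SLC7A11 to 3.64 for MGST1, and these extremes are descriptions only. MGST1 was singled out for its N352S level, and SLC7A11 was too low in all siRNA libraries for a fall to appear there. For GPX1 (0.91 ± 0.05, adjusted p = 1.2e-05) and GSTO1 (0.59 ± 0.06, adjusted p = 2e-04) the gene fell in one experiment and rose in the other. Those 2 genes called in opposite directions were 5.13% of the 39, against 3.83% of all tested genes, and 3 genes called in the same direction (GSTM4 higher, NFE2L2 and FTL lower) were 7.69%, against 4.45%. For these 3 the effects were not found to differ (adjusted p = 0.31, 0.92 and 0.30).

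**Figure D3:**
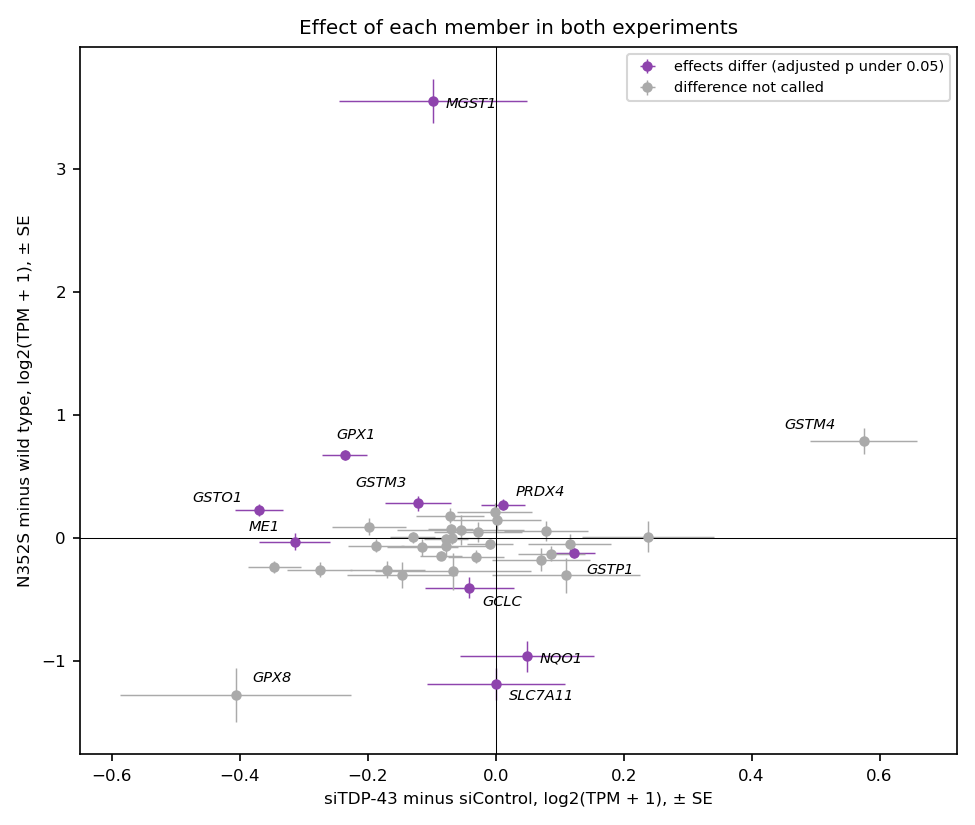
Each of the 39 genes by its siTDP-43 minus siControl difference (horizontal) and its N352S minus wild-type difference (vertical), both on the log2(TPM + 1) scale with SE bars. Purple points are the 10 genes whose effects differed at adjusted p under 0.05, and grey points are the rest; MGST1 stands apart at 3.55 in N352S and −0.10 in siTDP-43, and GSTM4 is high on both axes.

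The classical targets of NRF2 gave no common direction in the knockdown. The 8 inducible genes HMOX1, NQO1, ME1, SLC7A11, GCLC, GCLM, TXNRD1 and SRXN1 summed to 179.2 ± 2.65 TPM in siTDP-43 and 186.7 ± 5.88 TPM in siControl libraries, with overlapping ranges. They summed to 198.3 ± 18.1 TPM in N352S and 250.8 ± 6.14 TPM in wild-type libraries, without overlap, and TXNRD1 made up the largest part of each sum. By limma, 4 of these 8 were lower in N352S and 0 were higher (0 also at an unadjusted p under 0.05), where 11.9% and 8.28% of all tested genes were. Without N352S library 82, GCLC and TXNRD1 lost their calls and 2 of the 8 were lower. In siTDP-43 1 was lower and 0 were higher (1, SRXN1, at an unadjusted p under 0.05), where 19.8% and 6.19% of all tested genes were. In a wider list, described next, 15 genes of inducible detoxification and export were tested, and they moved both ways in N352S. Higher were AKR1B1, BLVRB and CBR3 (3, where 8.28% of all tested genes were). Lower were AKR1C1, ABCC1, ABCC4 and UGDH (4, where 11.9% were). Of these N352S calls, only those of AKR1B1 and UGDH held under every alternative run. In siTDP-43, 1 of the 15 was higher (BLVRB) and 4 were lower (AKR1B1, BLVRA, CBR1 and CBR3), where 6.19% and 19.8% of all tested genes were. CBR3 fell by 0.70 ± 0.16 (adjusted p = 0.012) and BLVRA by 0.40 ± 0.05 (adjusted p = 0.001). The knockdown calls of BLVRB, BLVRA and CBR3 held under every alternative run. All these genes were named after their values were seen.

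A wider list of 75 genes of the same pathways was described alongside, of which 74 were in the table and 57 were tested. In siTDP-43, 3 of the 57 were higher and 14 lower (6.19% and 19.8% of all tested genes were). The split became 12 and 7 with median-of-ratios scaling and 12 and 6 with quantile normalization. Over all tested genes, the main fit called 1059 higher and 3389 lower. The scaled fits called 1939 and 2077, and 1932 and 2015. In N352S, 7 were higher and 14 lower (8.28% and 11.9% of all tested genes were), and 7 were lower without N352S library 82 or either wild-type library. Of its 9 regulators, 1 was higher (MAFG) and 1 lower (BACH1) in siTDP-43. In N352S, 0 were higher and 3 lower (NFE2L1, NFE2L3 and BACH1). BACH1, named after its values were seen, fell by 0.36 ± 0.10 in siTDP-43 (adjusted p = 0.031) and 0.48 ± 0.13 in N352S (0.028). These BACH1 calls were lost under 8 of 20 and 5 of 19 alternatives. CHAC1, which degrades glutathione and is a target of the integrated stress response, had 44.65 and 45.59 TPM in N352S, against 90.63 and 94.15 TPM in wild-type libraries, and fell by 1.02 ± 0.10 (adjusted p = 0.00018). SLC3A2, the heavy chain that partners SLC7A11, averaged 132.2 TPM in N352S and 171.6 TPM in wild-type libraries (−0.37 ± 0.06, adjusted p = 0.0022). Both chains of the cystine antiporter and CHAC1 were thus called lower in N352S. In siTDP-43, SLC3A2 rose by 0.17 ± 0.05 (adjusted p = 0.024) and CHAC1 fell by 0.33 ± 0.08 (adjusted p = 0.017). These knockdown calls were lost under 6 and 4 of 20 alternatives. The effects differed between the experiments for both genes (adjusted p = 0.001 for SLC3A2 and 0.0058 for CHAC1). SLC3A2 was chosen after its values were seen.

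PGD, an NADPH-producing dehydrogenase of the pentose phosphate pathway, had 76.34 and 77.62 TPM in N352S, against 164.8 and 171.0 TPM in wild-type libraries, and fell by 1.11 ± 0.04 (adjusted p = 6.2e-07). It lies at chr1:10398592-10420144, on the telomeric side of TARDBP, where none of the 39 genes lies. In the siRNA experiment PGD averaged 179.2 TPM in siTDP-43 and 169.8 TPM in siControl libraries (adjusted p = 0.11). SESN3, a sestrin that restrains growth signalling under stress, was lower in both experiments (−0.34 ± 0.07, adjusted p = 0.0072, in siTDP-43; −0.57 ± 0.08, adjusted p = 0.0018, in N352S). SESN1, of the same family, fell by 0.54 ± 0.09 in siTDP-43 (adjusted p = 0.0035) and was not called in N352S (0.15 ± 0.12, adjusted p = 0.42), and the effects differed (adjusted p = 0.011). SESN2, the remaining sestrin, averaged 16.8 TPM in N352S and 28.0 TPM in wild-type libraries (−0.71 ± 0.08, adjusted p = 0.00042) and was not called in siTDP-43 (0.19 ± 0.07, adjusted p = 0.061). GPX3, the secreted glutathione peroxidase, averaged 39.6 TPM in N352S and 27.0 TPM in wild-type libraries and rose by 0.54 ± 0.08 (adjusted p = 0.0019). GLRX, a glutaredoxin that removes glutathione from proteins, averaged 21.9 TPM in N352S and 13.2 TPM in wild-type libraries and rose by 0.69 ± 0.11 (adjusted p = 0.003). SESN3, SESN1, SESN2, GPX3 and GLRX were also named after their values were seen, and their calls within an experiment held under every alternative run.

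**Figure D4:**
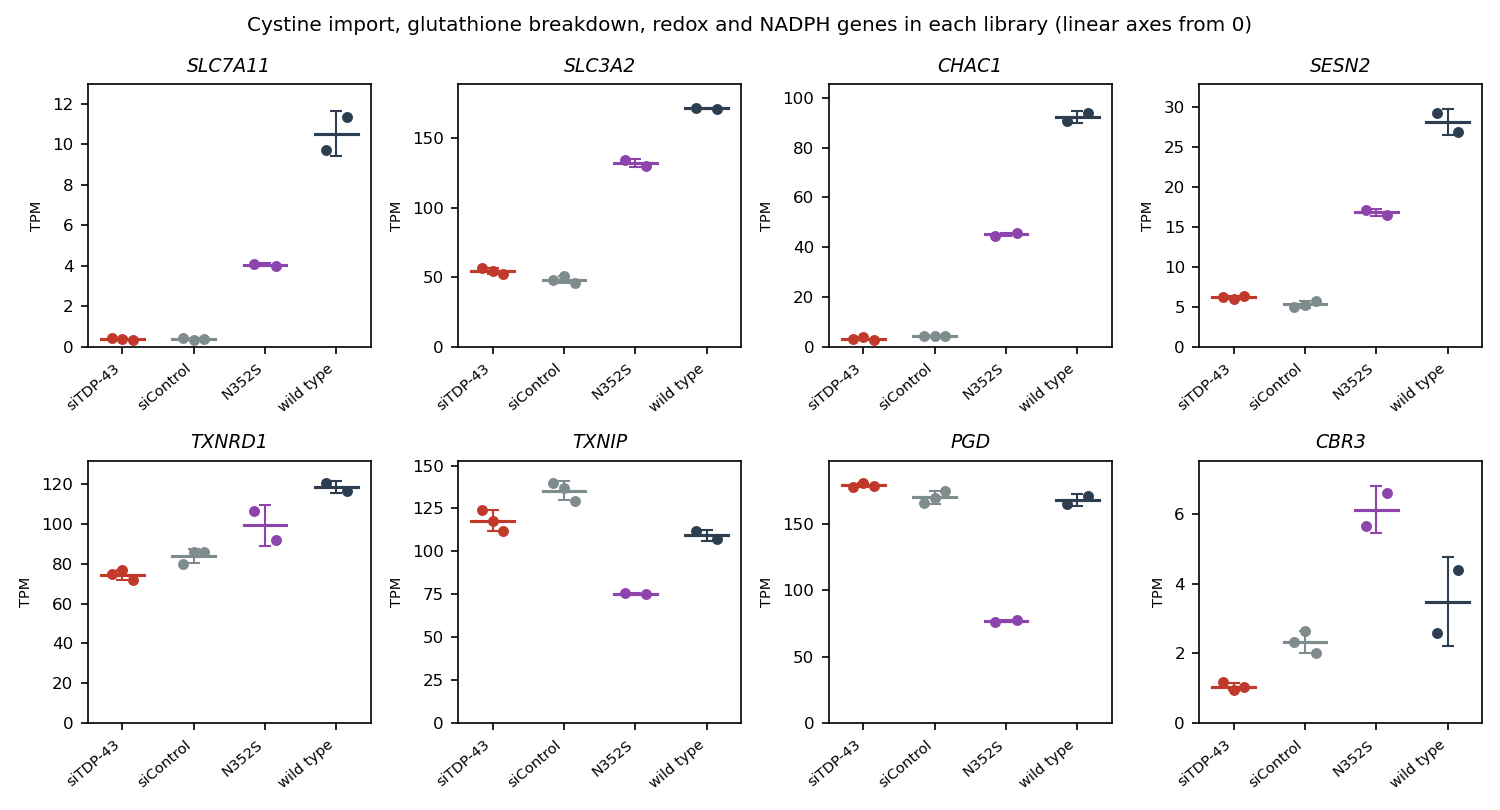
TPM of SLC7A11, TXNRD1 and 6 genes of the wider list in each library, on linear axes from 0, with the group mean (line) and SD (bar). SLC7A11, SLC3A2, CHAC1, SESN2, TXNIP and PGD lie lower in both N352S libraries than in both wild-type libraries, and SLC7A11 and CHAC1 are low in all siRNA libraries.

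The control groups of the experiments were themselves unlike for some of the genes. SLC7A11 averaged 10.5 TPM in wild-type and 0.377 TPM in siControl libraries. CHAC1 averaged 92.4 TPM in wild-type and 4.17 TPM in siControl libraries. The gap was smaller for NQO1, at 30.1 and 17.3 TPM. Other genes were close, such as NFE2L2 at 56.0 and 57.6 TPM and FTL at 640.3 and 651.2 TPM. These levels come from separate experiments and were not tested against each other. As all values are from bulk RNA, a change in the number of cells that express a gene and a change per cell cannot be told apart.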

How the data were processed

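RNA of 10 libraries was extracted with Trizol and prepared with an Illumina TruSeq RNA kit, per the labels' protocols. The authors deposited 1 table of TPM values for 58174 genes, with 2 decimals; STAR, RSEM and hg38 are named in the submitters' processing notes, with versions and annotation not given in the sources used here. TPM are shares, so a rise of abundant transcripts lowers all others, and closely related or overlapping genes are uncertain.

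The 17118 genes that averaged 1 TPM or more across all 10 libraries were analysed as log2(TPM + 1) with limma 3.58.1 (R 4.3.3): means of 4 groups, mean-variance trend, 6 residual degrees of freedom, Benjamini-Hochberg adjustment over all tested genes, and calls at 0.05. The code was tested on simulated data. Positions came from GENCODE 29 and promoters from RefSeq (GRCh38.p14). Figures used matplotlib 3.10.9.

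Full values are given for MGST1, NFE2L2, KEAP1, HMOX1, NQO1, GCLC, GCLM, SLC7A11 and each of the 39 genes called with a change of at least 0.5 (log2), and of the wider list genes called with at least 1 are named. The genes and lists were chosen with earlier results of these data known.

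Titles number the siRNA libraries 1 to 3. Deviations from group means correlated at 0.34, 0.14 and 0.20 between same-numbered libraries, all above 0.1, so the numbers may mark pairs. The main fit held no pairing, and a fit blocked by these numbers served as an alternative. The others were quantile normalization and median-of-ratios scaling, a pseudocount of 0.1 or 5, a filter at 5 TPM or none, leaving out mitochondrially encoded genes, fitting only the groups compared, robust eBayes, and leaving out each library.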

Additional observations from a re-analysis of the deposited data

Results flagged for a closer look

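For 10 of the 39 genes, the effect in N352S cells and the effect of the knockdown differed by a test of the difference itself (limma, adjusted over all 17118 tested genes, of which 22.0% differed). The N352S effect was the higher by 3.64 for MGST1, 0.91 for GPX1, 0.59 for GSTO1, 0.40 for GSTM3, 0.28 for ME1 and 0.26 for PRDX4 on the log2(TPM + 1) scale. The difference was −1.19 for SLC7A11, −1.01 for NQO1, −0.37 for GCLC and −0.25 for GSTP1. The values for MGST1 and SLC7A11 are descriptions: MGST1 was singled out in earlier results for its N352S level and passed the filter only there, and SLC7A11 was too low in the siRNA libraries for a fall to appear. The call was lost under 15 of 18 alternatives for ME1, 10 of 18 for GCLC and 1 of 18 for PRDX4, and under none of the alternatives run for NQO1, GPX1, GSTM3, GSTO1 and GSTP1. The experiments also differ in delivery, in control cells and in number of libraries, and the part of these in the differences was not tested. No group held enough libraries for a test of single outlying values.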

How the results depend on the processing

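Leaving out single libraries moved the number of genes higher in siTDP-43 between 1 and 2, lower in siTDP-43 between 6 and 9, higher in N352S between 4 and 6, lower in N352S between 4 and 10, and with different effects between 8 and 11. The number higher in siTDP-43 (2) was 1 with no filter, 4 with median-of-ratios scaling and 5 with quantile normalization, and the number lower (8) was 5 with either of these scalings. With the replicate block, 2 genes were higher and 8 lower in siTDP-43, as without it; the genotype libraries could not be paired. For the wider list, the number higher in siTDP-43 (3) was 12 with either scaling and 7 without mitochondrially encoded genes, and the number lower (14) was 7, 6 and 9 with median-of-ratios scaling, quantile normalization and without those genes. Over all tested genes, the main fit called 1059 higher and 3389 lower. In the order given, these fits called 1939, 1932 and 1409 higher and 2077, 2015 and 2707 lower. The number of the wider list lower in N352S (14) was 9 with no filter and 8 with only the groups compared. Single libraries moved these counts between 1 and 6, 8 and 14, and 7 and 14, and the number higher in N352S (7) between 4 and 7. GPX4 was called higher in siTDP-43 with quantile normalization (0.10), against −0.01 without it; the cause was not tested. Of 2211 values of single genes under an alternative, 2086 kept their direction or stayed uncalled on either side of 0, 84 lost a call, 40 gained one and 1 was reversed. Fits of only the groups compared hold no contrast for the difference of effects. TPM give no depth, so no limit of detection could be set for low genes such as GPX8, HMOX1 and MGST1 outside N352S.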
